A study of Homo sapiens with 2 samples.

Results

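The genes described here are 47 interferon-stimulated genes, chosen as a fixed list of symbols and found by name among the 36601 human features measured in each section. All 47 symbols were found, and each had at least 1 transcript count in both sections. They were measured in 1 section each of 2 tumors of MDA-MB-231, a long-established line of human breast cancer cells without hormone receptors, here made to carry a hypoxia fate-mapping reporter that permanently switches a cell's fluorescence after low oxygen. Both tumors, Tumor-897 and Tumor-899, belong to 1 group, were untreated and grew for 18 days; frozen slices of 10 µm were laid on Visium slides. A Visium slide captures RNA in an array of barcoded spots, each of which can hold several cells, and a unique molecular identifier (UMI) marks each captured transcript once. The fluorescence images were not used here, so no spot was assigned a hypoxic history. The labels name neither the host animal nor whether the sections come from separate hosts. A difference between the 2 sections can therefore have a technical source. The p-values refer to these 2 sections only. With 1 residual degree of freedom in the main fits, they rest mostly on a spread shared across genes.

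Interferons are secreted proteins released by cells that sense foreign or misplaced nucleic acid. Type I and type III interferons bind their receptors, JAK1 and TYK2 are activated, and a complex that holds STAT2 and IRF9 binds an interferon-stimulated response element (ISRE) beside its target genes. The targets include sensors of viral RNA, enzymes that stop translation or degrade RNA, membrane proteins that block viral entry, the ubiquitin-like ISG15, and the pathway's own components and brakes. In tumors, including breast carcinoma, part of this program can be expressed without infection.

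The promoters of 6 members are shown because they hold the letters of the response element, because IFITM3 rose in a comparison in which ISG15, IFI6 and IFI27 fell, and because IFITM1 differed most between the tumors. Sequences and positions are from RefSeq on GRCh38.p14. Each runs 5′ to 3′ on the strand of its gene, from 250 bases before the annotated transcript start to 10 bases after it, and capitals mark matches to GAAANNGAAA on either strand. IFI27, at chr14:94110486-94110745 on the plus strand, is shown for a start that lies inside the span of the gene. ISG15 is at chr1:1013247-1013506 on the plus strand, IFI6 at chr1:27672183-27672442 on the minus strand, IFIT1 at chr10:89392373-89392632 on the plus strand, IFITM1 at chr11:313790-314049 on the plus strand and IFITM3 at chr11:320851-321110 on the minus strand.
IFI27: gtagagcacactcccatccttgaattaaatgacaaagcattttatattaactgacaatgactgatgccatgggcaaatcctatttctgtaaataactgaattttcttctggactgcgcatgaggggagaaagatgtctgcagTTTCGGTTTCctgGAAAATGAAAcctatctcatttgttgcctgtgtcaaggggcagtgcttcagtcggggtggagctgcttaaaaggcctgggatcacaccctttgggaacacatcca
ISG15: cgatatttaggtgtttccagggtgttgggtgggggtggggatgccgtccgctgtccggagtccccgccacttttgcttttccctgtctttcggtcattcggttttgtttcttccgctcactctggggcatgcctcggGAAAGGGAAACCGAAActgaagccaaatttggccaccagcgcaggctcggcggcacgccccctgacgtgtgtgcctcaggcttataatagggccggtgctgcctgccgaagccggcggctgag
IFI6: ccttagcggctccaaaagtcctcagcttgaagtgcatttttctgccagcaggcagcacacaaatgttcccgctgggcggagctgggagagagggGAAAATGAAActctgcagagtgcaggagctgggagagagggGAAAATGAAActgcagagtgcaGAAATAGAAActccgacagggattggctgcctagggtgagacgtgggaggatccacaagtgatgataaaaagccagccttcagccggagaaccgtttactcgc
IFIT1: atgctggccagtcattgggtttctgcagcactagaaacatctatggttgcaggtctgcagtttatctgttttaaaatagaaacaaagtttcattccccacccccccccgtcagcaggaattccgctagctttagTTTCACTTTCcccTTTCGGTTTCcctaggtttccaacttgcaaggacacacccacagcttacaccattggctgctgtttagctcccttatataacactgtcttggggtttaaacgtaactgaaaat
IFITM1: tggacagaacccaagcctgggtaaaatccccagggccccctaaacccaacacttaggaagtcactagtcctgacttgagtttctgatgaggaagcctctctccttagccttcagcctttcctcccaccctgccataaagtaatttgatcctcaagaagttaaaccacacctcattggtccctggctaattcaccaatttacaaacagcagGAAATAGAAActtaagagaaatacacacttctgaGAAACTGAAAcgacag
IFITM3: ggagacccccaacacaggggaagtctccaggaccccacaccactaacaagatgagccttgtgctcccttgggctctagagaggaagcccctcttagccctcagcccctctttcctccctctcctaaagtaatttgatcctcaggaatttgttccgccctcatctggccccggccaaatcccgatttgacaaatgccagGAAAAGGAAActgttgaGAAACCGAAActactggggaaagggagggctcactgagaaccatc

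ISG15, IFI27, IFIT1 and IFITM3 each held 2 matches and IFI6 held 3, and those of ISG15 overlap by some bases. The matches of IFIT1 and the match of IFI27 farther from the start read as TTTCNNTTTC on the gene's strand. In IFITM1 the match nearest the start reaches across it. Promoter windows of 300 bases were found for 38 of the 47 members, and none was found under the symbols DHX58, IFIT2, IFITM2, IRF7, MX2, OAS2, OASL, TRIM22 and USP18. Of the 38, 25 (65.8%) held GAAANNGAAA, against 4.38% of 27305 genes with a window. ACGTG or GCGTG, the core of a hypoxia response element, was in 17 of 38 (44.7%) and 52.4% of genes. These patterns were searched on both strands, and a match describes the letters only.

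The members made up 0.293% of the UMIs of Tumor-897 (171800 of 58661164) and 0.270% of those kept from Tumor-899 (107182 of 39735490). Of the spots over tissue, 2536 and 2841 had at least 500 UMIs and were used, with medians of 23574 and 15895 UMIs. A threshold on UMIs averaged over adjacent spots set apart a low-UMI area of 20.8% and 29.0% of spots. The sections share 1627 barcodes, which is the layout of the array and not shared cells. VIM, CD44, KRT8, KRT18 and EGFR, known to be expressed in MDA-MB-231, were at 201 to 5639 CPM (counts per 1000000 UMIs), while the hormone receptor genes ESR1 and PGR were at most 0.126 CPM in either section. In spots, fewer cells of a type and less RNA per cell cannot be told apart.

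The whole-section level of most members was within 1.5-fold between the 2 tumors, and IFITM1 differed most. Of 47 members, 44 were within that limit. Across 10527 genes at 5 CPM or more in both, the median difference was 1.09-fold and the 95th percentile 1.26-fold. Beyond that percentile but within 1.5-fold were XAF1, IFI44L, MX1, IFI27, SAMD9L, MX2 and PARP9, higher in Tumor-897, and IFI6, higher in Tumor-899. XAF1 was 1.48-fold and MX1 1.35-fold higher in Tumor-897, and IFI6 was at 80.6 CPM in Tumor-897 and 108 CPM in Tumor-899. IFITM1, a small membrane protein that blocks viral entry (chromosome 11, 314040 to 315272), was at 96.1 CPM in Tumor-897 and 12.6 CPM in Tumor-899, a 7.60-fold difference. No other member differed as far, and of all 10527 genes only HIST2H2AA4, a histone gene with near-identical copies, did. With every spot thinned to 2000 UMIs, 16.6% of spots of Tumor-897 and 2.33% of Tumor-899 held an IFITM1 UMI (74.3% and 15.0% before thinning). Its neighbours on chromosome 11 were nearly level, IFITM2 at 168 and 161 CPM and IFITM3 at 659 and 593 CPM. The IFITM genes resemble each other, so reads shared between them make single values less certain, and with 1 section per tumor no difference between tumors was tested. The other members outside 1.5-fold were TRIM22 (2.80 and 1.84 CPM) and RSAD2 (0.818 and 0.377 CPM). RSAD2, which encodes viperin, and its neighbour CMPK2 were near 0, at 48 and 11 UMIs in Tumor-897 and 15 and 9 UMIs in Tumor-899.

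The interferons themselves were almost absent from the counts. Of 9 interferon genes listed, 6 had 0 UMIs in Tumor-897 and 8 in Tumor-899, and IFNB1, IFNA1, IFNA2, IFNE, IFNG and IFNL3 had 0 in both. A count of 0 allows up to 0.0511 CPM in Tumor-897 and 0.0755 CPM in Tumor-899, counting error only. All 9 together gave 15 and 2 UMIs, of which 12 and 2 were IFNL1. Transcripts of a host animal's own interferons would be counted only where they align to human genes.

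Most members were lower where hypoxia genes were high. A hypoxia score was made from 28 genes, none of them a member, such as CA9, VEGFA and PGK1, averaged over each spot and its neighbours, and the highest quartile of spots was set against the lowest within each tumor. Of 45 members tested, 21 were lower in the high-score spots, where 5.90% of 14145 genes were lower, and 3 were higher, where 7.67% were (edgeR's quasi-likelihood test, Benjamini-Hochberg adjusted p of 0.05, n = 2 tumors). The median log2 fold change of the members was -0.42, against 0.00 for all genes tested, and -0.49 in Tumor-897 and -0.32 in Tumor-899. In all, 32 of 45 members were lower in both tumors, 6 were higher in both and 7 went opposite ways, while 35.0% of all genes tested were lower in both.

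**Figure D1:**
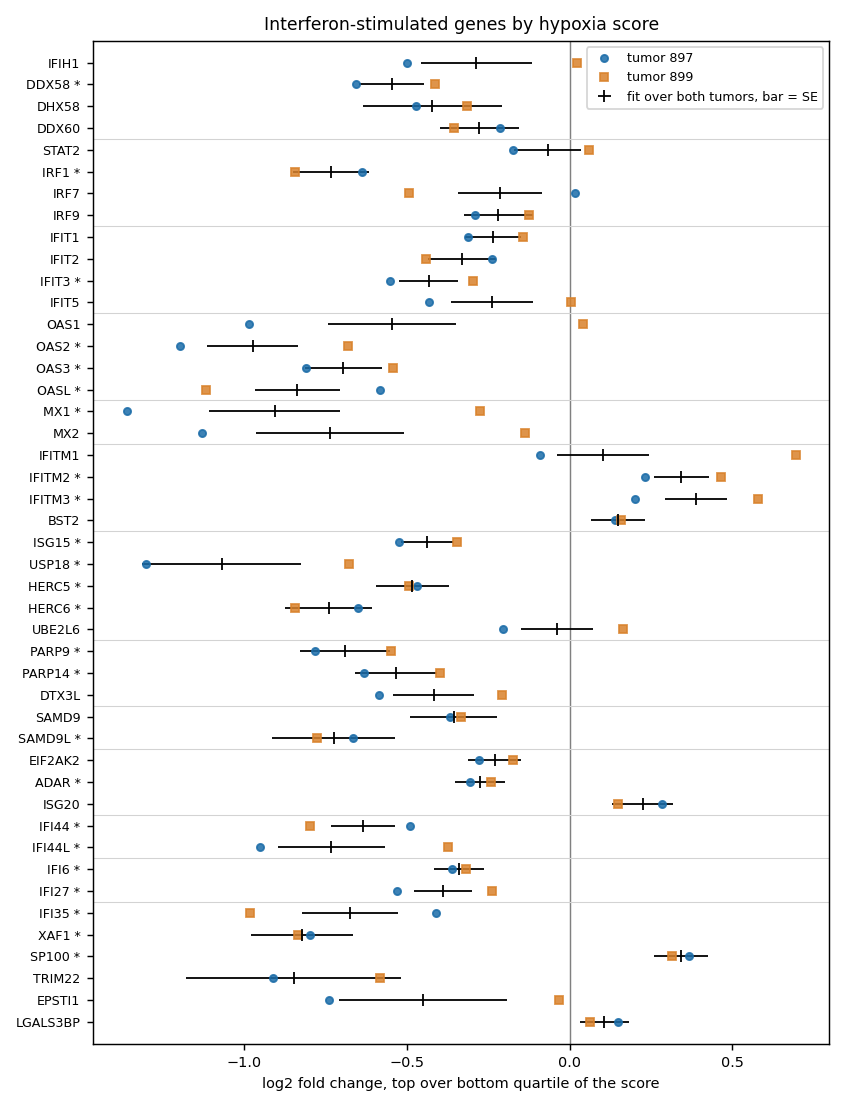
Log2 fold change, top over bottom quartile of the hypoxia score, of 45 members, grouped by role, with Tumor-897 as circles, Tumor-899 as squares, the fit over both tumors as a black tick with its SE, and called genes starred. Most ticks lie left of 0, and IFITM1, IFITM2, IFITM3, BST2, ISG20, SP100 and LGALS3BP lie right of it.

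The oligoadenylate synthetases, which answer double-stranded RNA by making the signal that activates RNase L, fell in 3 of 4 members. OAS2 (chromosome 12, 112978519 to 113011723) was at 15.4 against 35.6 CPM, high-score against low-score spots, in Tumor-897, and in Tumor-899 at 15.9 against 25.6 CPM. These zone values, and those of the other tested comparisons, are CPM scaled by TMM, which sets each library's scale from the bulk of its genes, while quartile and whole-section values are per UMI total. The low-score spots were higher in both tumors, and the fit gave log2 -0.97 ± 0.14 SE (edgeR adjusted p = 0.0023, n = 2). OAS3 was 1.62-fold and OASL, a family member without synthetase activity, 1.79-fold lower (log2 -0.70 ± 0.12 and -0.84 ± 0.13 SE). OAS1 was at 16.9 against 33.6 CPM in Tumor-897 but at 19.7 against 19.2 CPM in Tumor-899, and did not pass (log2 -0.55 ± 0.20 SE, edgeR adjusted p = 0.097).

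The MX genes, dynamin-like GTPases that trap viral nucleocapsids, had unlike values in the 2 tumors. MX1 (chromosome 21, 41420558 to 41459214) was at 18.5 against 47.9 CPM in Tumor-897, and in Tumor-899 at 18.6 against 22.5 CPM. It was lower in the high-score spots of both, by log2 1.36 in the one and 0.27 in the other, and passed over both (log2 -0.91 ± 0.20 SE, edgeR adjusted p = 0.017, n = 2). MX2, at log2 -1.13 in Tumor-897 and -0.14 in Tumor-899, did not pass.

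Of the ISG15 system, 4 of 5 members fell. ISG15 is attached to proteins by UBE2L6 and HERC5 and removed by USP18, which also restrains the interferon receptor. ISG15 (chromosome 1, 1013497 to 1014540) was at 267 against 384 CPM in Tumor-897, and in Tumor-899 at 245 against 311 CPM (log2 -0.44 ± 0.08 SE, edgeR adjusted p = 0.0072, n = 2). USP18 had the lowest fitted value of the members, log2 -1.07 ± 0.24 SE, from 36 against 140 UMIs in Tumor-897 and 39 against 38 in Tumor-899, where the low-score spots held fewer UMIs in all. HERC5 and its relative HERC6 were at -0.48 ± 0.11 and -0.74 ± 0.13. UBE2L6 was at -0.21 in Tumor-897 and 0.16 in Tumor-899 and did not pass.

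Of the small membrane proteins, 2 of 4 rose and 0 fell. IFITM3, which stops viruses from fusing in endosomes (chromosome 11, 319676 to 320860), was at 717 against 623 CPM in Tumor-897, and in Tumor-899 at 677 against 453 CPM. The high-score spots were higher in both tumors, and the fit gave log2 0.39 ± 0.09 SE (edgeR adjusted p = 0.026, n = 2), a call lost without the tumor as a block. IFITM2 rose by log2 0.34 ± 0.08 SE, a call that was lost when counts were scaled by library size alone. It was also lost with DESeq2, without the block and in spots thinned to 2000 UMIs. IFITM1 was at log2 -0.09 in Tumor-897 and 0.70 in Tumor-899 (161 against 59 UMIs) and did not pass, nor did BST2, which tethers budding viruses (log2 0.15 ± 0.08 SE).

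Among RNA sensors, DDX58, which encodes RIG-I and is listed as RIGI in RefSeq, fell (log2 -0.55 ± 0.10 SE), and IFIH1, DHX58 and DDX60 were at -0.29, -0.42 and -0.28 without passing. IRF1 was the transcription factor that fell, at 20.7 against 32.3 CPM in Tumor-897, and in Tumor-899 at 16.6 against 29.9 CPM (log2 -0.73 ± 0.12 SE). STAT2, IRF7 and IRF9 were between log2 -0.22 and -0.07. IFIT3 fell (log2 -0.43 ± 0.09 SE), and its fellow binders of viral RNA or of IFIT complexes, IFIT1, IFIT2 and IFIT5, were between -0.33 and -0.24 without passing.

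PARP9 and PARP14, of the ADP-ribosyltransferase family, fell by log2 0.69 and 0.53, and DTX3L, the partner of PARP9, was at log2 -0.42 with an edgeR adjusted p of 0.0505. SAMD9L, a restrictor of translation, fell (log2 -0.73 ± 0.19 SE), and SAMD9 was at -0.36. IFI44 and IFI44L were at -0.63 ± 0.10 and -0.73 ± 0.16, and both passed. The small mitochondrial or endoplasmic reticulum proteins IFI6 and IFI27 passed at -0.34 ± 0.08 and -0.39 ± 0.09, and ADAR, which edits double-stranded RNA, at -0.28 ± 0.08. The kinase EIF2AK2, known as PKR, was at -0.23 and the exonuclease ISG20 at 0.22, and neither passed.

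XAF1, an antagonist of the apoptosis inhibitor XIAP, fell by nearly the same amount in both tumors (log2 -0.80 and -0.83, fit -0.82 ± 0.16 SE), and IFI35 fell (-0.68 ± 0.15). SP100, a scaffold of nuclear bodies, rose (0.34 ± 0.08), a call lost under the same settings as that of IFITM2. TRIM22, EPSTI1 and LGALS3BP did not pass. By promoter, 11 of 25 members with GAAANNGAAA were lower and 1 higher, and 7 of 13 without it were lower and 1 higher. Each of these groups holds 1 member that was not tested, and the 9 members without a promoter window are in neither. Of all genes tested, 5.90% were lower and 7.67% higher.

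Depth and other cells moved with the zones. The low-score spots of Tumor-899 had a median of 2817 UMIs against 17335 in the high-score spots, and 51.6% of them lay in the low-UMI area, while in Tumor-897 the low-score spots were the deeper (29313 against 19862). All 24 calls were kept, in the same direction, without the low-UMI area. Markers of other cells took 0.136% of UMIs in high-score spots against 0.113% in low-score spots of Tumor-897, and 0.101% and 0.260% in Tumor-899. Marker transcripts of a host animal's own cells would be counted only where they align to human genes, so these values do not count host cells. Of 7 macrophage and granulocyte markers tested, 4 were lower and 1, CD68, was higher, and of 8 fibroblast markers 3 were lower, by edgeR. DESeq2 called CD68 higher, 0 macrophage and granulocyte markers lower and 1 fibroblast marker lower, and the median log2 fold change of the fibroblast markers was 0.014 in Tumor-897 and -1.05 in Tumor-899. Over whole sections CD68 had 10412 UMIs in Tumor-897 and 6649 in Tumor-899, C1QB 750 and 211, AIF1 356 and 247, TYROBP 344 and 253 and the T cell gene CD3D 159 and 87. The leukocyte gene PTPRC had 12 and 11 UMIs, CD163 had 2 and 2, and the B cell gene MS4A1 and the plasmacytoid cell gene IL3RA had 0. All 24 calls were also kept without the 10% of spots richest in those markers.

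With library size as the only scaling, the all-gene median was log2 -0.11; it called 30 members lower and 1 higher, with 2243 genes lower and 790 higher in all, against 834 and 1085 with TMM. DESeq2 called 5 members lower (ISG15, IRF1, OAS2, OASL and IFI44) and 1 higher (IFITM3), so that 6 of the 24 calls were kept. The fit without the tumor as a block called 11 and 0, and spots thinned to 2000 UMIs 6 and 1.

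Summed over members, each quartile of the score was below the one before it in Tumor-897, while the first 3 were nearly level in Tumor-899. The members summed to 3212, 3027, 2800 and 2558 CPM from the lowest to the highest quartile in Tumor-897. In Tumor-899 they summed to 2768, 2763, 2760 and 2539 CPM, so that only the highest quartile of the sum stood below the rest. Abundant members weigh most in this sum, and 2 of them were higher at every step in Tumor-899. These were IFITM3 (483, 535, 623 and 670 CPM) and IFITM2 (141, 142, 167 and 181 CPM), so the level sum does not describe each member. In Tumor-897, 34 of 45 members were lower at every step, as 23.7% of 13622 genes did, and in Tumor-899 16 of 45 did, as did 18.4% of 13661. Both tumors shared 15 of these members, and 8.84% of 13393 genes were lower at every step in both. No member was higher at every step in Tumor-897, and 4 of 45 were in Tumor-899 (8.89%), as 9.46% and 9.10% of genes were.

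**Figure D2:**
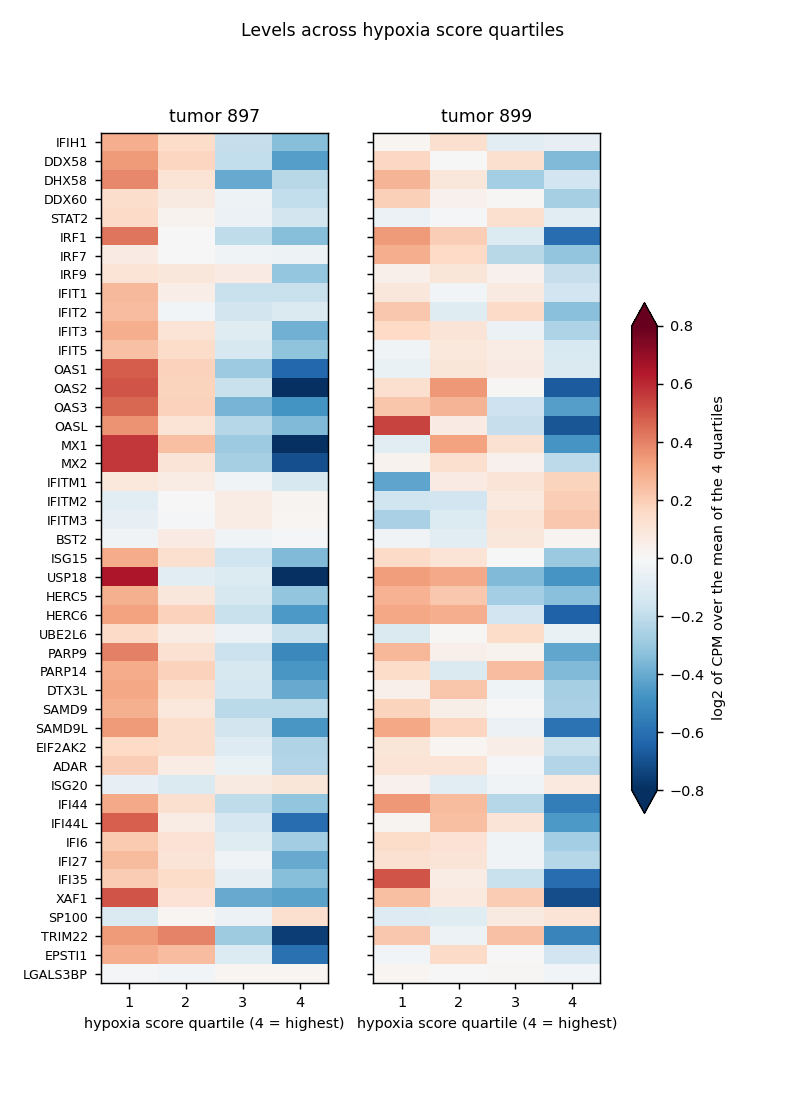
Level of 45 members in each quartile of the hypoxia score, as log2 of CPM over the mean of the 4 quartiles, for each tumor, in the same order of roles. In Tumor-897 most rows run from red at quartile 1 to blue at quartile 4; in Tumor-899 quartile 4 is the bluest for most, and the IFITM rows run the other way.

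ISG15 was lower at every step in both tumors, from 390 over 346 and 283 to 249 CPM in Tumor-897 and from 331 over 323 and 297 to 243 CPM in Tumor-899. MX1 was lower at every step in Tumor-897, from 48.7 over 38.9 and 26.9 to 17.3 CPM. In Tumor-899 MX1 was at 24.0, 32.0, 27.9 and 18.5 CPM, highest in the second quartile. IFITM3 was higher at every step in Tumor-899, from 483 over 535 and 623 to 670 CPM, and was at 633, 657, 690 and 668 CPM in Tumor-897.

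Genes that feed into or restrain the pathway were read in the same zones. Of 10 sensing adaptors and kinases, such as MAVS, TBK1, IRF3 and CGAS, 0 were called in either direction by edgeR. The same held for 7 genes listed as negative regulators, among them SOCS1, SOCS3 and ISG20L2, whose role as a regulator was not tested. Over all genes tested 5.90% were lower and 7.67% higher, and lists this short cannot tell 0 calls from those shares. Unadjusted p-values of edgeR were under 0.05 for 1 adaptor and, in the second list, for SOCS3 and ISG20L2, and DESeq2 called 0 in both lists.

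Of 30 other interferon targets tested, 9 were lower and 0 higher by edgeR, where 5.90% of all genes were lower, and DESeq2 called 2 lower. SAMHD1, which depletes nucleotides needed for viral reverse transcription, was at 32.1 against 55.6 CPM in Tumor-897, and in Tumor-899 at 27.9 against 48.5 CPM (log2 -0.80 ± 0.09 SE). The others were NLRC5, which drives class I antigen presentation (-0.74 ± 0.21), TRIM14 (-0.67 ± 0.10), APOL6 (-0.63 ± 0.17), the peptide transporter TAP2 (-0.46 ± 0.09), ZC3HAV1 (-0.35 ± 0.10), PNPT1 (-0.34 ± 0.09), WARS (-0.31 ± 0.08) and LAP3 (-0.28 ± 0.08). The chemokines CXCL9, CXCL10 and CXCL11, common markers of an interferon response in tissue, had 2, 25 and 6 UMIs in Tumor-897 and 2, 10 and 6 in Tumor-899 and were not tested.

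Fewer members were called by place in the tissue. The inner tertile of spots by steps to the tissue border was set against the outer tertile, with no expression value entering the zones. Of 46 members tested, 6 were higher in the inner tertile, where 2.30% of 14758 genes were, and 1 was lower, where 3.36% were (edgeR, adjusted p of 0.05, n = 2 tumors). The median log2 fold change was 0.14, at 0.17 in Tumor-897 and 0.062 in Tumor-899. OAS1 was at 31.9 CPM inside and 21.8 outside in Tumor-897 and at 23.7 and 17.4 in Tumor-899, higher inside in both (log2 0.50 ± 0.10 SE, edgeR adjusted p = 0.0055). XAF1 (0.57 ± 0.14), MX1 (0.41 ± 0.10), IFITM1 (0.39 ± 0.09), IFITM3 (0.30 ± 0.07) and EIF2AK2 (0.29 ± 0.07) were the others higher inside. OASL was lower inside, at 27.8 against 35.1 CPM and 24.8 against 36.5 CPM (log2 -0.44 ± 0.10 SE).

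The low-UMI area took 40.4% and 55.1% of the inner tertile, and all 7 calls were kept without it. Of the fibroblast markers 7 of 8 tested were lower inside, and markers of other cells took 0.0816% of UMIs inside and 0.173% outside in Tumor-897 and 0.0632% and 0.246% in Tumor-899; without the spots richest in them all but MX1 kept their calls. DESeq2 and the fit without the tumor block called 0 members in either direction (each had 5 higher and, in turn, 1 and 3 lower at an unadjusted p under 0.05), library size alone 2 higher, and thinned spots 1 higher. Over all genes, library size alone called 127 of 14758 higher and thinned spots 165 of 10590.

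Adjacent spots were alike in the levels of many members. Moran I, which is near 0 for a gene scattered at random over spots and approaches 1 where adjacent spots are alike, was computed for the 40 members whose mean reached 0.1 UMI per spot. Its median over members was 0.079 in Tumor-897 and 0.072 in Tumor-899, against 0.029 and 0.049 over 9932 genes, and 36 and 29 of the 40 members were above the median of genes at their level. Ranked by the lower of both tumors, IFI27 was the patchiest (0.400 and 0.341, ranks 33 and 41 of 9932), followed by ISG15 (0.261 and 0.294), IFI6 (0.189 and 0.213), IFI44 (0.129 and 0.158) and IFITM3 (0.193 and 0.112). In Tumor-899, however, IFITM3 was below the median of genes at its level, 0.170 (rank 1743), by these log values. With Pearson residuals in their place it was at 0.235 there, where the top 5% of genes began at 0.097. Without the low-UMI area it was at 0.220, where they began at 0.121. MX1 and OAS1 were at 0.188 and 0.170 in Tumor-897 and at 0.082 and 0.075 in Tumor-899, and IFITM1 at 0.157 and 0.038. Spots thinned to 2000 UMIs gave medians of 0.0063 and 0.0053, against 0.0011 and 0.0024 over all 9932 genes. There, 23 and 21 of the 40 members were above the median of genes at their level.

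**Figure D3:**
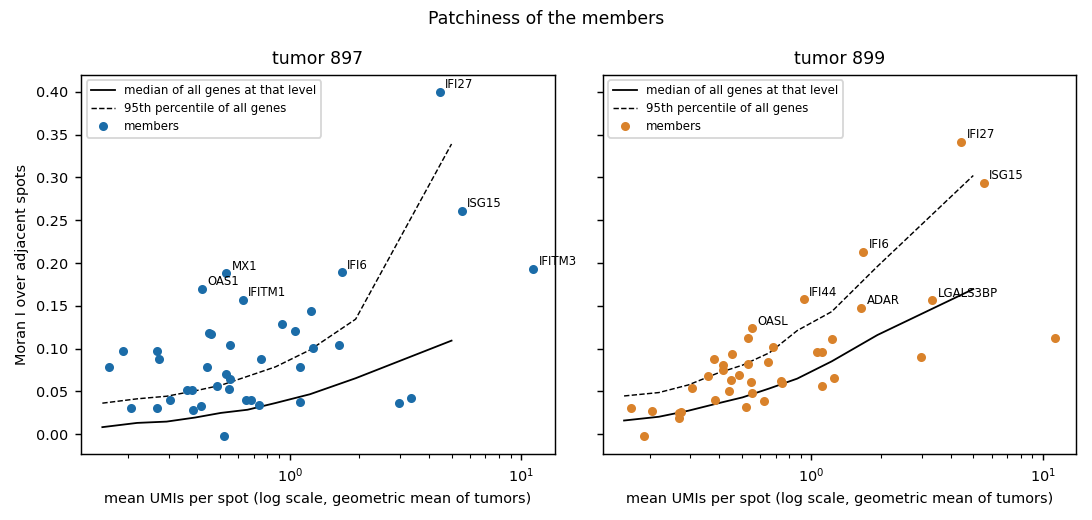
Moran I of 40 members against mean UMIs per spot (log scale) in each tumor, with the median and 95th percentile of 9932 genes by level as solid and dashed lines. IFI27 lies above the dashed line in both tumors, and most members lie above the solid one.

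To map the patches, the members were averaged into a score. A score of log values followed the UMIs of a spot (Pearson r of 0.662 and 0.820 with log UMIs, over 2536 and 2841 spots), so maps use a score of Pearson residuals, which followed depth less (r of 0.212 and 0.116, and 0.304 and 0.225 without the low-UMI area). This choice was made after the data were seen. The 10% of spots with the highest residual score fell into 9 patches of adjoining spots in Tumor-897, the largest of 164 spots (64.6%) and the next of 61. In Tumor-899 they fell into 17 patches, of which the largest held 71 spots (24.9%) and the next 50. None of these spots lay in the low-UMI area. Their median depth was 37952 UMIs against 22077 elsewhere in Tumor-897 and 21833 against 13691 in Tumor-899. By the choice of spots, their members summed higher, to 4141 CPM against 2700 CPM elsewhere in Tumor-897 and to 3612 against 2527 CPM in Tumor-899. The product of the scores of 2 spots, scaled so that 1 is the variance, averaged 0.536 and 0.424 for adjacent spots and 0.259 and 0.189 at 5 steps. It was 0.113 and 0.063 at 10 steps and 0.012 and -0.019 at 20.

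**Figure D4:**
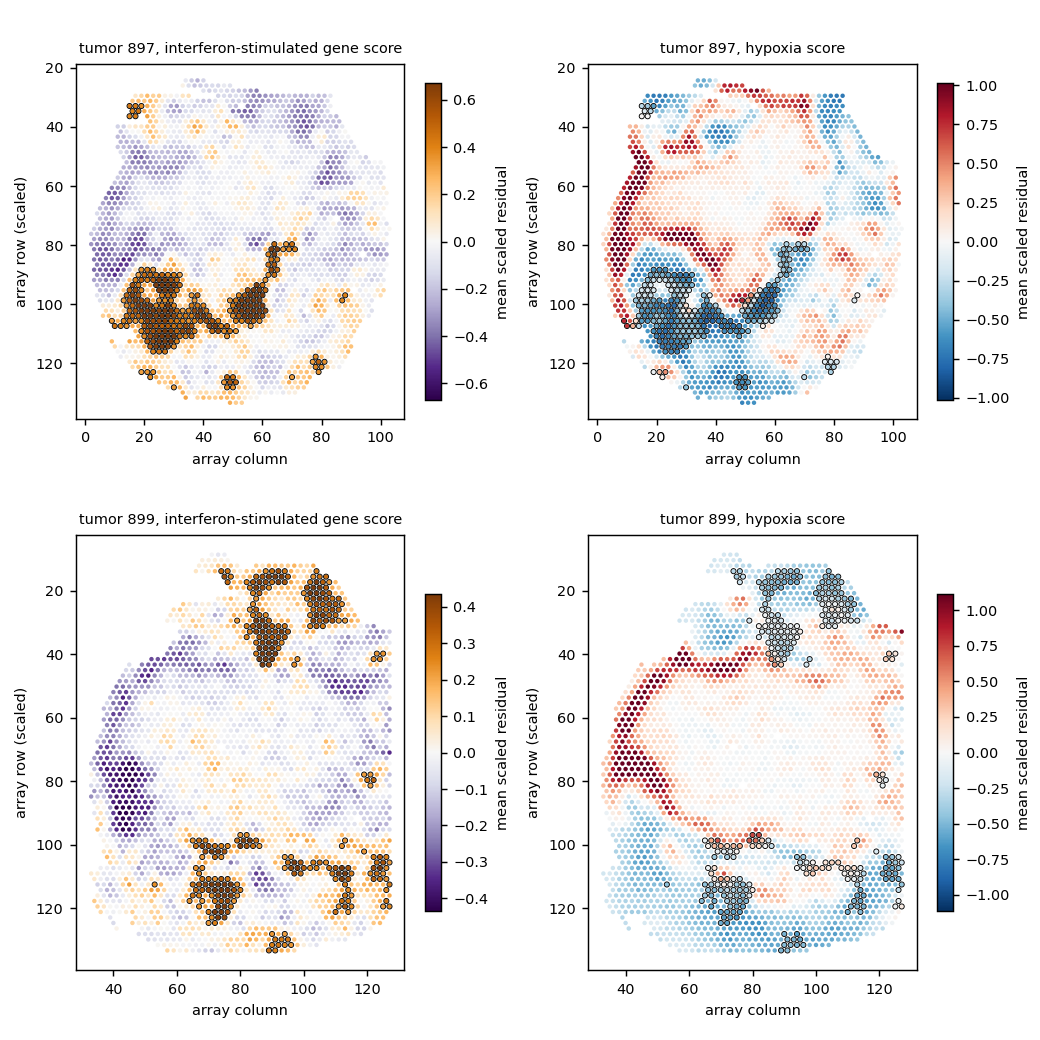
Maps of both sections by array position, with the residual score of the members at left and the hypoxia score at right (mean scaled residual, color scale cut at the 98th percentile of absolute values); black rings mark the 10% of spots with the highest member score. Ringed spots form a few large patches, 1 of them holding 164 spots in Tumor-897, and 71.7% of them in Tumor-897 and 48.8% in Tumor-899 lie in the lowest quartile of the hypoxia score.

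Of the spots with the highest member score, 71.7% in Tumor-897 and 48.8% in Tumor-899 were in the lowest quartile of the hypoxia score, and 3.15% and 11.9% in the highest. By the log score, 62.2% and 20.7% were in the lowest quartile, and in Tumor-899 32.3% and 33.0% in the 2 quartiles above it. Over spots, the member score and the hypoxia score correlated with a Pearson r of -0.465 in Tumor-897 (2536 spots) and -0.451 in Tumor-899 (2841 spots). Adjacent spots are not independent and all spots of a tumor share a library, so these are descriptions. With log values in place of residuals, r was -0.386 in Tumor-897 and 0.034 in Tumor-899, and without the low-UMI area -0.494 and -0.485.

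Members of each set were higher in the patches of the other set. The members were split into set A (23 genes) and set B (24 genes), with gene families kept whole, and each set was tested between the top and bottom quartile of spots by the other set's score, so that no tested gene drew its own zones. By the log score, 17 of 22 tested members of set B were higher in the patches of set A, where 3.07% of 14121 genes were, and 1, IFITM2, was lower, where 7.12% were (edgeR, adjusted p of 0.05, n = 2 tumors). Of set A, 20 of 23 were higher in the patches of set B, where 1.81% of 14100 genes were, and 0 were lower, where 4.67% were, with 23 and 0 at an unadjusted p under 0.05. DESeq2 called 9 higher in each set, as did the fit without the tumor block. Over all genes, DESeq2 called 29 of 14121 higher in the patches of set A and 24 of 14100 in those of set B. The fit without the block called 47 and 19 of these genes higher. Library size as the only scaling moved the all-gene medians to log2 0.18 and 0.16. The bottom quartile of these splits was 56.2% to 89.0% low-UMI area, with medians of 1378 to 7207 UMIs per spot against 21742 to 33161 in the top.

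With the residual score and without the low-UMI area, 20 of 22 members of set B were higher, where 5.43% of genes were, and 23 of 23 of set A, where 4.70% were, and median depths were closer (17429 to 26449 against 21338 to 33651 UMIs). Of these MX1 had the largest value, at 62.5 against 12.6 CPM in Tumor-897, and in Tumor-899 at 41.0 against 10.8 CPM (log2 2.17 ± 0.10 SE). OAS2 (1.93 ± 0.10), MX2 (1.91 ± 0.16), OAS1 (1.82 ± 0.11), IFI44L (1.72 ± 0.12), XAF1 (1.71 ± 0.15) and USP18 (1.65 ± 0.23) came next. IFI27, also the patchiest, was at 437 against 138 CPM in Tumor-897, and in Tumor-899 at 296 against 113 CPM. ISG15 was at 475 against 209 and 357 against 183 CPM (log2 1.08 ± 0.04 SE). IFITM3 rose by log2 0.19 ± 0.05 SE, at 0.30 in Tumor-897 and 0.07 in Tumor-899. IFITM2 (-0.12 ± 0.05) and SP100 (0.01 ± 0.06) did not pass.

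**Figure D5:**
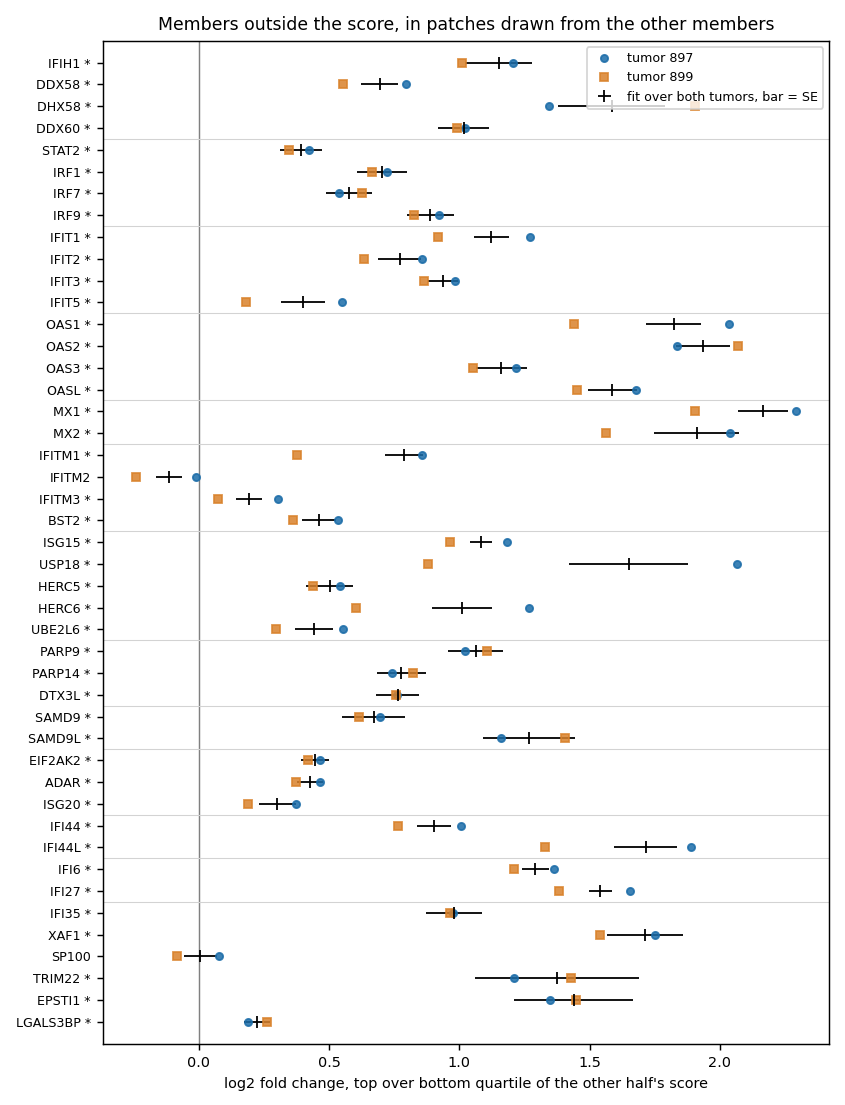
Log2 fold change of each member between the top and bottom quartile of spots by the residual score of the other set, without the low-UMI area, with Tumor-897 (circles) and Tumor-899 (squares), the fit (tick, SE) and called genes starred. All but IFITM2 and SP100 are called higher, with MX1 farthest right at 2.17.

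Non-members that went with the member score were named by the lower of the 2 tumors' correlations over spots, among 4676 genes whose mean reached 0.5 UMI per spot. With the residual score they included IGFBP4 (0.386 in Tumor-897 and 0.401 in Tumor-899), S100A6 (0.318 and 0.355), B2M (0.291 and 0.287), PRSS2 (0.341 and 0.250), S100A4 (0.225 and 0.346), F2RL1, HIF1A, NDUFB1 and PRSS23, against medians of 0.025 and 0.030. B2M is the light chain of class I antigen-presenting molecules and an interferon target. With the log score they were SNRPG, H2AFZ, NDUFB1, MAT2A, PPIA, HINT1, HSPA8, SLIRP, MRPS18C and UQCRQ, against medians of 0.134 and 0.240, and only NDUFB1 is in both lists.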

How the data were processed

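The members and gene lists were chosen with earlier results of these data known. The authors deposited raw UMI counts, with no normalization. The file headers name Space Ranger 1.3.0, and the submitters' processing notes name the build hg38. Spots under 500 UMIs were left out. The hypoxia score was the mean z-score of log2 of 1 plus UMIs per 10000 over 28 genes, averaged with adjacent spots. Border was any off-tissue area of at least 5 positions, without the frame edge.

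Counts were summed per tumor and zone (4 sums) and tested with edgeR 4.0.16 (quasi-likelihood, filterByExpr, TMM) and the tumor as a block, since both zones lie in the same section. This leaves 1 residual degree of freedom, with 9.07 prior ones in the hypoxia comparison, 18.1 for the tertiles, 53.2 for set A and no upper bound for set B, so errors rest mostly on a spread shared across genes and a gene with unlike values in the tumors can still pass. CPM in tested comparisons is TMM-scaled; elsewhere it is per library or zone total. Single-tumor log2 values carry a prior count of 2.

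Named members were those called by hypoxia score, the most abundant of each role, the 5 with the highest Moran I, pathway genes called (at most 12) and the 10 most alike non-members; others were named after their values were seen. On simulated counts with 200 changed genes, 47.0%, 76.0%, 48.0% (set B) and 33.3% (set A) of genes changed by log2 0.5 were recovered in the 4 comparisons, and 97.0% to 99.0% at log2 1, with 1, 13, 1 and 6 false calls. Alternatives were DESeq2 1.42.0 and its size factors, library size alone, no filter, no block, thinned spots, other zone widths, borders and smoothing, the low-UMI area or marker-rich spots left out, each tumor left out and, added later, Pearson residual scores. Positions were matched for 47 of 47 members. R 4.3.3 and Python 3.11.15 were used. Intervals and floors cover counting error only. Some results are not reported here.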

Additional observations from a re-analysis of the deposited data

How the results depend on the processing

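Calls rest on 2 sections, and each zone's UMIs limit what can pass. By hypoxia score (21 lower, 3 higher) DESeq2 called 5 and 1, no tumor block 11 and 0 (26 and 3 at an unadjusted p under 0.05), spots thinned to 2000 UMIs 6 and 1, and library size alone 30 and 1. The top and bottom 10% of spots gave a median of -0.65, and leaving out each tumor -0.49 to -0.32. Between tertiles (6 higher, 1 lower) DESeq2 called 0 and 0 (5 and 1 at an unadjusted p under 0.05), no block 0 and 0 (5 and 3), library size alone 2 higher, thinned spots 1 and 0 (3 and 4), no filter 2 lower, and counting the frame edge as border 11 and 2. Higher and lower calls over all genes were 340 and 496 of 14758 by edgeR, 23 and 79 by DESeq2 and 7 and 34 without the block. Library size alone called 127 and 263, and thinned spots 165 and 243 of 10590. No filter called 449 and 762 of 23937, and the frame edge as border 599 and 796 of 14799. The median of the members was 0.060 in thinned spots and 0.062 to 0.169 with each tumor left out.

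For set B in the patches of set A (17 higher), DESeq2 and no block called 9 and thinned spots 8, with a median of 0.57 to 0.88 with each tumor left out; TRIM22, called higher, was at log2 -0.38 without Tumor-897 and 2.45 without Tumor-899. For set A in the patches of set B (20 higher), DESeq2 and no block called 9 and thinned spots 13, and medians were 0.71 to 1.09 with each tumor left out. With library size as the only scaling the all-gene medians there were log2 0.18 and 0.16, which turned the split of all genes from 434 higher and 1006 lower to 1834 and 513, and from 255 and 659 to 972 and 340. SP100, not called in set B, turned from log2 -0.10 to 0.064, and IFITM2 was no longer called lower. Over all genes, DESeq2 called 29 higher in the patches of set A and 24 in those of set B, no block 47 and 19, and thinned spots 145 and 133. By hypoxia score, DESeq2 called 322 genes higher and 115 lower, no block 459 and 253, and thinned spots 509 and 309 of 9631. Median Moran I of the members was 0.062 and 0.037 on Pearson residuals, 0.072 and 0.053 without the low-UMI area, and 0.0063 and 0.0053 in thinned spots. The medians over 9932 genes were, in turn, 0.0123 and 0.0110, 0.0165 and 0.0202, and 0.0011 and 0.0024. On residuals, 35 and 38 of the 40 members were above the median of genes at their level, and 34 and 37 without the low-UMI area. The correlation of the member score with the hypoxia score in Tumor-899 was 0.034 with log values in place of residuals. The cause of these shifts was not tested. Leaving out the low-UMI area or marker-rich spots, another smoothing and the residual scores kept all 24 hypoxia calls. Residual scores were added after the data were seen.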

Other observations

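The members' summed level was lowest at the top of the hypoxia score. In the highest-scoring 10% of spots they summed to 2334 CPM in Tumor-897 and 2249 CPM in Tumor-899, the lowest of the 10 classes in both. In Tumor-899 the lowest-scoring 10% of spots, 70.9% of them in the low-UMI area, were at 2634 CPM, below the 8 classes that followed and above the highest-scoring one. Among the genes that went with the member score over spots, chosen here after their values were seen, were other interferon targets outside the list: LY6E (r of 0.325 in Tumor-897 and 0.208 in Tumor-899), HELZ2 (0.306 and 0.193) and SAMHD1 (0.207 and 0.165), over 2536 and 2841 spots that share a library within each tumor.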
